A study of Mus musculus with 17 samples.

Results

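The genes examined here encode the protein parts of the cytosolic ribosome of mouse germ cells. They are the rows of the deposited gene table whose symbol is Rpl or Rps followed by a number, with or without the letter a or x, together with Rplp0, Rplp1, Rplp2 and Rpsa. This gave 77 members of 23282 rows, 46 for the large and 31 for the small subunit. Across wild-type (WT) and Nat10-deleted (SKO) cells of 3 stages, the members took 3.45% to 5.38% of all gene reads. In spermatogonia the SKO level was the lower one for 68 of 76 tested members, each by less than 2-fold, and for 6414 of all 12846 genes. In leptotene/zygotene spermatocytes 12 of 76 members passed the test as more than 2-fold higher in SKO, when 13.4% of all genes did, and none as more than 2-fold lower, when 25.8% of all genes did. Rps4x was the 1 member called higher in SKO at all 3 stages.

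A cytosolic ribosome joins a small subunit, which reads the mRNA, with a large subunit, which forms the peptide bonds. Most of the proteins are normally needed in equal numbers, and the genes are expressed together in almost every cell. Their mRNAs usually begin with a run of pyrimidines, the terminal oligopyrimidine (TOP) tract, through which mTOR signalling sets how strongly they are translated. Several members lie on the X chromosome, which is silenced in male germ cells during meiosis, and autosomal copies of some of them, such as Rpl10l and Rpl39l, are known for their expression in the testis. NAT10 is an RNA acetyltransferase that modifies 18S ribosomal RNA and some transfer RNAs, and it has also been studied as the writer of acetylated cytidine in mRNA.

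Germ cells of C57BL/6 mice (C57BL/6J background in the study's methods) at the spermatogonial stage (SPG), at pre-leptotene (PreL) and at leptotene/zygotene (LZ) were sorted by flow cytometry with a DNA dye and sequenced by Smart-seq2, a full-length cDNA method that starts from poly(A) RNA, with synthetic ERCC spike-in RNA added. SKO animals were Nat10 fl/-;Stra8-GFPCre: 1 allele carried loxP sites around exons, the other was null, and the recombinase was made from the Stra8 promoter, which becomes active in germ cells before meiosis. WT animals were the controls, no treatment is given for either genotype, and the age of the sequenced animals is not given in the sources used here. There were 3 libraries in each group except WT LZ, which had 2, so 17 in all, which the study calls biological replicates without saying whether each came from a separate animal. P-values measure the spread between these libraries.

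Values are given as rescaled values, which are the deposited ERCC-calibrated counts divided by 1 size factor per library (the median ratio over all genes), so that most genes sit at a common level. Whole reads could be recovered from the deposited values, and libraries held 5812380 to 13820953 of them, the 3 SKO LZ libraries being the shallowest. A member was called when limma gave an adjusted p under 0.05 and a log2 fold change (log2FC, on the log2 of the value plus 10) beyond 1. A second count drops the fold limit. Nat10 itself, counted over all its exons, had 680 to 799 in WT SPG and 318 to 470 in SKO SPG, 542 to 823 against 232 to 317 in PreL, and 546 and 724 against 184 to 255 in LZ. The genotypes did not overlap at any stage, and the log2FC was -0.87, -1.29 and -1.47, with adjusted p of 0.0326, 0.00591 and 0.00469. In PreL the value was -0.588 (adjusted p = 0.114) on the ERCC-calibrated values without rescaling. In LZ it was -1.27 (adjusted p = 0.0535) without WT LZ replicate 3, with the spread taken from the SKO libraries alone. Reads of the exons that recombination leaves in place are still counted.

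The labelled stages were checked against germ cell markers. Genes of early meiotic prophase summed to 3650 to 3720 reads per 1e6 in WT SPG, 4970 to 5730 in WT PreL and 5720 to 6410 in WT LZ, so they were also present in the cells labelled SPG. In SKO they summed to 5240 to 5510, 7000 to 10000 and 3640 to 5490. Genes of undifferentiated spermatogonia stood at 60.5 to 82.2 in SPG of both genotypes and at 49.8 to 143 in PreL. In LZ they stood at 85.9 to 195, above every SPG library. Markers of other cells also moved with genotype. Of Leydig cell genes, 5 of 9 tested were called higher in SKO SPG, 6 of 9 in SKO PreL and 6 of 10 in SKO LZ. The counts were 6 of 7, 3 of 6 and 3 of 6 for peritubular myoid genes, 6 of 9, 2 of 9 and 5 of 6 for macrophage genes, 1 of 7, 3 of 9 and 1 of 9 for Sertoli genes, and 0 of 3, 0 of 4 and 0 of 3 for endothelial genes. Late spermatocyte genes were called lower in SKO for 4 of 11, 9 of 11 and 12 of 12, and spermatid genes for 9 of 12, 9 of 12 and 12 of 12. In LZ the 12 late spermatocyte genes summed to 4280 and 7520 reads per 1e6 in WT and to 226 to 233 in SKO. Hsd17b3, Lhcgr, Esam and Emr1 had 0 reads in all WT SPG libraries, and Acrv1 and Odf1 had 0 in all SKO LZ libraries. In sorted bulk samples fewer cells of a type and less RNA per cell cannot be told apart, and the part that other cells have in the differences below was not tested.

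The start regions were searched for sequences shared by many members. Of the 77 members, 56 had an entry in the RefSeq promoter table (GRCm38.p6, 250 bases before and 50 from the annotated start). A tract of C and at least 4 further C or T, beginning within 5 bases of the annotated start, was counted. It was present at 23 of 56 members (41.1%), against 16.2% of 27025 genes. Of small subunit members 11 of 22 had it, and of large subunit members 12 of 34. A run that began earlier and crossed the start was not counted, at members or at other genes. Such runs stood at Rpl35, Rpl7a and Rpl14, all of the large subunit. The word CCGGAAG, of the kind bound by ETS factors, was found on either strand in 39.3% of member promoters against 9.12% of all. AAGATGG, of the kind bound by YY1, was found in 14.3% against 6.48%, and TATAAA in 8.93% against 14.2%. Promoters of 69 mitochondrial ribosomal protein genes had CCGGAAG in 36.2%, AAGATGG in 18.8%, TATAAA in 5.8% and the tract in 17.4%. Of these, CCGGAAG and AAGATGG were thus not particular to the cytosolic members. CCGGAAG and AAGATGG can share 3 letters, and only the first listed start of each gene was used. The lines below print 30 bases around the start, 15 before it, for 6 members at the ends of the genotype comparisons. Capitals mark the tract where there was one:
Rplp2, chr7:141447636-141447665, + strand: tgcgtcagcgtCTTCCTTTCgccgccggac
Rpl38, chr11:114668565-114668594, + strand: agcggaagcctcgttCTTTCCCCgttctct
Rps21, chr2:180257364-180257393, + strand: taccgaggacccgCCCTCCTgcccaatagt
Rpl39, chrX:37085208-37085237, - strand: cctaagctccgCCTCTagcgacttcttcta
Rpl36a, chrX:134585639-134585668, + strand: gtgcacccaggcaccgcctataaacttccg
Rps4x, chrX:102189377-102189406, - strand: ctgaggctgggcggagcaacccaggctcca
Rplp2, which was among the lowest members in SKO spermatogonia, and Rpl38 and Rps21, which were called higher in SKO LZ, carried tracts of 9, 8 and 7 bases. Rpl39 had a short tract of 5 bases, and the X-linked Rpl36a and Rps4x had none in this window. The annotated start of a gene can differ between RefSeq and GENCODE. A missing tract therefore says only that no such run began within 5 bases of this start.

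Members differed widely in level. Per kilobase of transcript and 1e6 reads, Rps14 at 3756 ± 155 (SD, n = 3) and Rps28 at 3385 ± 177 were among the 3 highest in WT SPG. The 3 libraries of Rps14 (3661 to 3935) lay above those of Rps28 (3240 to 3583). At the other end were Rpl26 with a mean of 0.353 reads per library and none in 12 of 17 libraries, Rps27 with 14.5 reads, Rpl30 with 70.8 and Rpl34 with 74.0. The authors counted uniquely mapped reads, and 68 members share a stretch of at least 100 bases at 98% identity or more with another annotated transcript, over 98.8% of the Rps27 and 92.1% of the Rpl30 transcript. The levels of such genes are therefore uncertain. Rpl26 was not tested, which left 45 large and 31 small subunit members. Rps20 was left out of levels per length because its only annotated coding transcript is 3706 bases long.

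Rps4x, the X-linked copy of a small subunit protein, was itself low in WT SPG, at 37.4 ± 5.38 on the same scale (n = 3), rank 72 of 76. The members as a group took 5.12% to 5.38% of reads in WT SPG and 4.09% to 4.68% in SKO SPG, 4.21% to 4.60% and 4.01% to 4.47% in PreL, and 3.45% and 4.27% against 3.69% to 4.25% in LZ. The genotypes did not overlap in SPG and overlapped at both later stages.

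**Figure D1:**
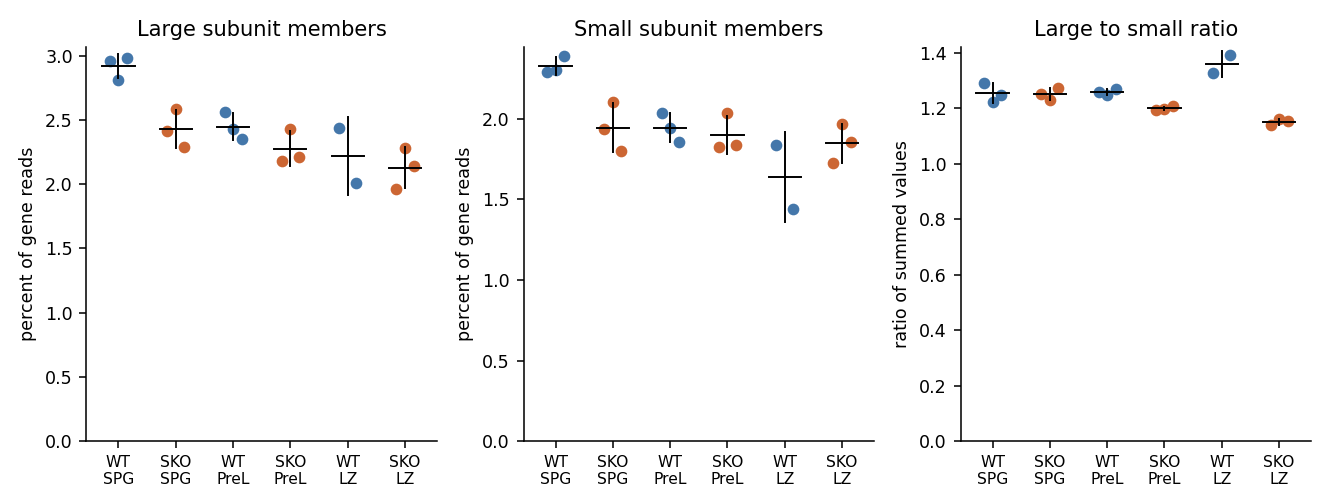
Share of gene reads in percent for large and small subunit members, and the ratio of the 2 sums, by group. Each point is 1 library (WT blue, SKO orange), the horizontal line is the mean and the vertical line is the SD over 3 libraries (2 in WT LZ). The large to small ratio of WT LZ (1.33 and 1.39) lies above that of SKO LZ (1.14 to 1.16).

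In spermatogonia the members were mostly lower in SKO by less than 2-fold. With the fold limit, 0 of 76 members were called lower (all genes tested: 2.06%) and 1 higher (all genes: 3.95%). Without it, 28 were lower (all genes: 4.84%) and 1 higher (all genes: 6.22%). The median log2FC was -0.34 over members, -0.31 for the large and -0.36 for the small subunit, against 0.00 over all 12846 genes. At an unadjusted p under 0.05, 45 members were lower and 2 higher (all genes: 1602 and 1739 of 12846). Both edgeR and DESeq2 on the recovered reads also called 0 lower with the fold limit (all genes: 1.76% and 2.55%). The ERCC-calibrated values without rescaling, which keep differences in total RNA, called 6 lower (all genes: 4.5%).

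The lowest members were Rplp2, Rps29, Rpl38 and Rps25. Rplp2, which with Rplp0 and Rplp1 forms the stalk that recruits elongation factors, had values of 6389, 8487 and 7910 in WT SPG and 4139, 4898 and 3157 in SKO SPG. The SKO libraries all lay under the WT ones, with a log2FC of -0.93 ± 0.16 (SE) and adjusted p = 0.00296. Rps29, a small zinc-binding protein of the small subunit, had 14340, 15690 and 14670 against 8039, 9630 and 6502. It fell by 0.92 on the log2 scale (SE 0.14, adjusted p = 0.00106), again with no overlap. Rpl38, known for its part in the translation of Hox mRNAs, had 13600, 16880 and 16180 against 8738, 10750 and 7623, a log2FC of -0.81 ± 0.14 (adjusted p = 0.00255). Rps25, which is needed for some internal ribosome entry sites, had a log2FC of -0.80 ± 0.15 (adjusted p = 0.00524). The other stalk genes were lower by smaller amounts, Rplp1 at -0.51 (adjusted p = 0.0131) and Rplp0 at -0.41 (adjusted p = 0.0252).

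Some well-known members did not pass the test in spermatogonia. Rpl5 and Rpl11, which with 5S rRNA form the particle that binds Mdm2, had log2FC of -0.39 (adjusted p = 0.0612) and 0.02 (adjusted p = 0.935). Rps6, the member phosphorylated by S6 kinase, had 0.22 (adjusted p = 0.202), Rpsa, also known as the laminin receptor, had -0.33 (adjusted p = 0.101), and Rps27a, made as a fusion with ubiquitin, had -0.35 (adjusted p = 0.0676). After Rps4x, the 3 members at the upper end were Rpl24 (0.29), Rps6 and Rpl10 (0.20), none past the test.

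Rps4x went the other way from its neighbours. Its values were 866, 773 and 704 in WT SPG and 3062, 2995 and 1591 in SKO SPG, a log2FC of 1.61 ± 0.23 (adjusted p = 0.000825). They were 538, 468 and 455 against 1726, 1934 and 1219 in PreL (1.70 ± 0.20, adjusted p = 0.000716), and 609 and 592 against 1754, 1774 and 1897 in LZ (1.57 ± 0.16, adjusted p = 0.000211). The genotypes did not overlap at any stage, and WT values varied from 455 to 866 over all stages. The difference between the genotype effects of PreL and SPG was 0.06 ± 0.30 (adjusted p = 0.952) and that of LZ and PreL was -0.12 ± 0.32 (adjusted p = 0.795). Markers of somatic cells moved with it. Peritubular myoid genes summed to 581, 490 and 308 reads per 1e6 in SKO SPG libraries 1, 3 and 4 and to at most 53.2 in WT SPG, and Leydig genes to 236, 131 and 78.4 against at most 36.0. The SKO SPG library with the least Rps4x, replicate 4, had the least of both sums, though not of the macrophage (99.4 against 94.7 in replicate 3) and Sertoli genes (334 against 310). The SKO PreL library with the least Rps4x, replicate 3, also had the least peritubular and Leydig signal, with 34.6 and 48.3. In SKO LZ the sums were 45.9 to 98.2 and 92.2 to 248, while Rps4x varied by little. The part of these cells in the Rps4x values was not tested. Rps4x shares 81.2% of its transcript with near-identical annotated copies.

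**Figure D2:**
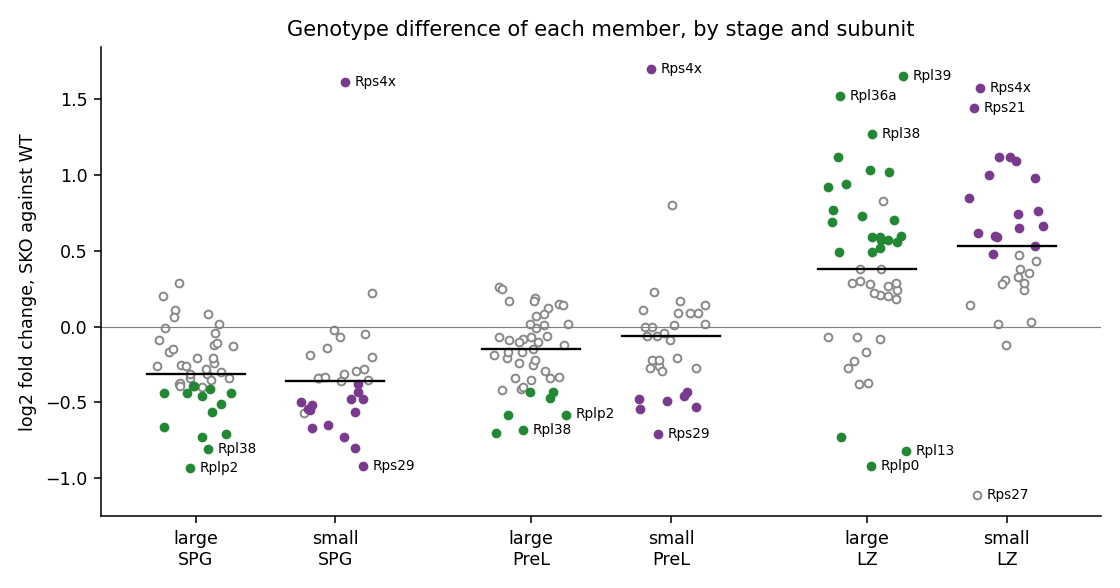
Log2 fold change of SKO against WT for each tested member, for large (45) and small (31) subunit members in SPG, PreL and LZ. Filled points (large green, small purple) had an adjusted p under 0.05, open points did not, and lines mark the median of each subunit. Most points lie under 0 in SPG (medians -0.31 and -0.36) and over 0 in LZ (medians 0.38 and 0.53), and Rps4x lies above 1 in each stage.

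In pre-leptotene cells the difference was smaller. With the fold limit, 0 members were called lower (all genes: 5.83%) and 1, Rps4x, was called higher (all genes: 5.32%). Without it, 14 were lower (all genes: 10%), 7 of each subunit, and 1 was higher (all genes: 7.87%). The median log2FC was -0.11 against 0.04 over all 13132 genes, with 50 members below 0 and 26 above (all genes: 6194 and 6938). On the ERCC-calibrated values without rescaling the sign of this median turned to 0.615, on a scale where the median of all genes was 0.73. At an unadjusted p under 0.05, 23 members were lower (all genes: 2247 of 13132). Both edgeR and DESeq2 called 0 lower with the fold limit (all genes: 5.84% and 6.77%).

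The lowest members in PreL were Rps29, Rpl22, Rpl38 and Rplp2. Rps29 had 17470, 16940 and 16540 in WT and 10320, 10990 and 9677 in SKO, with no overlap (log2FC -0.71 ± 0.11, adjusted p = 0.00379). Rpl22, an RNA-binding protein of the large subunit with functions outside the ribosome, had 7325, 7559 and 7849 against 4401, 4966 and 4564, also with no overlap (-0.70 ± 0.11, adjusted p = 0.00371). Rpl38 had -0.68 ± 0.13 (adjusted p = 0.00934) and Rplp2 -0.58 ± 0.14 (adjusted p = 0.0236). At the upper end, after Rps4x, stood Rps27 with 0.80 ± 0.41 (adjusted p = 0.206) on a mean of 14.5 reads, and Rpl10 with 0.26 (adjusted p = 0.165).

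In leptotene/zygotene cells the members stood higher in SKO relative to other genes. With the fold limit 12 were called higher (all genes: 13.4%) and 0 lower (all genes: 25.8%), a share of members called higher not far from that of all genes. Without the limit, 38 of 76 were higher (all genes: 19.8%) and 3 lower (all genes: 31.1%). The median log2FC was 0.48 over members, 0.38 for the large and 0.53 for the small subunit, and -0.13 over all 13724 genes. The called members were Rpl39, Rpl36a, Rpl38, Rpl10, Rpl22 and Rpl35a of the large subunit and Rps4x, Rps21, Rps28, Rps15a, Rps12 and Rps29 of the small subunit. With 12 calls, Rpl22, Rpl35a, Rps28, Rps15a, Rps12 and Rps29 were named after their values were seen, as was Rps23, which lay just outside the fold limit at 0.98 (adjusted p = 0.00324). Without WT LZ replicate 2 fewer members and more of all genes were called higher, with the spread then taken from the SKO libraries alone. On the ERCC-calibrated values without rescaling 5 were called higher (all genes: 11.3%) and 1 lower (all genes: 28%). The median of the members was then 0.36 and that of all genes -0.25. As a share of reads the members took 3.45% and 4.27% in WT LZ and 3.69% to 4.25% in SKO LZ, which overlap. Genes of late spermatocytes and spermatids, 24 of 24 of them called lower in SKO LZ, moved with this result, and their part in it was not tested.

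All 4 X-linked members were called higher in SKO LZ, and so were 8 of 72 autosomal members, beside 13.4% of all genes. The difference between the 2 sets was not tested, and Rps4x was called at the earlier stages too. Rpl39, a short basic protein at the exit tunnel, had 1394 and 2208 in WT LZ and 5931, 4797 and 6035 in SKO LZ, against 2761 to 3141 in WT SPG. The SKO LZ libraries were the highest of all 17 for this gene, with a log2FC of 1.65 ± 0.24 (adjusted p = 0.000977). Rpl36a, a neighbour of the exit site for transfer RNA, had 2912 and 2661 against 8371, 7945 and 7999, with no overlap (1.52 ± 0.14, adjusted p = 0.000141). Rpl10, which joins the large subunit late in its assembly, had 4308 and 4260 against 10210, 8384 and 9754 (1.12 ± 0.16, adjusted p = 0.00102). In SPG and PreL the log2FC of these 3 genes lay between -0.56 and 0.26, and the 1 that passed without the fold limit was Rpl36a in SPG (adjusted p = 0.0205). The median log2FC of the 4 X-linked members in LZ was 1.54 and that of autosomal members 0.45. In WT cells going from PreL to LZ, Rpl39, Rpl36a and Rpl10 had -0.94, -0.92 and -0.68 (adjusted p = 0.0146, 0.00737 and 0.0181) and Rps4x 0.16 (adjusted p = 0.668).

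Of autosomal members, Rps21 had 6383 and 6591 in WT LZ and 19720, 16900 and 16840 in SKO LZ. This was the reverse of the order in SPG (7573, 9336 and 8682 against 5197, 5950 and 4459), with a log2FC of 1.44 ± 0.17 in LZ (adjusted p = 0.000354) and -0.73 ± 0.13 in SPG (adjusted p = 0.00389). Rpl38 had 9200 and 11060 against 24050, 25200 and 24350 in LZ (1.27 ± 0.18, adjusted p = 0.000885), and thus also moved from the lower to the higher side. Rps28 and Rps12 of the small subunit and Rpl22 of the large had log2FC of 1.12, 1.09 and 1.03 in LZ after -0.67, -0.57 and -0.73 in SPG. Rps12 in SPG did not pass the test (adjusted p = 0.0648). None of these values overlapped between genotypes in LZ. Rps27a had 0.76 (adjusted p = 0.0117), Rpl5 0.57 (adjusted p = 0.0346), Rplp1 0.59 (adjusted p = 0.024) and Rplp2 0.52 (adjusted p = 0.0241), while Rps6 (0.47, adjusted p = 0.0668), Rpsa (0.28, adjusted p = 0.207) and Rpl11 (0.21, adjusted p = 0.375) did not pass.

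The 3 members lower in SKO LZ without the fold limit were all of the large subunit and included Rplp0 and Rpl13. Rplp0, the base of the stalk, had 32870 and 32320 in WT LZ and 15290, 19310 and 17750 in SKO LZ, with no overlap (log2FC -0.92 ± 0.19, adjusted p = 0.00492). Its WT LZ libraries were the highest of all 17. The other stalk genes had the opposite sign, so the 3 parts of the stalk did not move together. Rpl13 had 23390 and 25600 against 15010, 13580 and 13580, again with no overlap (-0.82 ± 0.17, adjusted p = 0.00603). Rps27 had the lowest fitted value, -1.11 ± 0.83 (adjusted p = 0.293), but with 0 reads in SKO LZ replicate 1 and few elsewhere it is uncertain.

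The members that were higher in SKO LZ tended to have transcripts of lower GC content. Over 75 members with a usable transcript, the log2FC in LZ had Pearson r = -0.465 and Spearman rho = -0.541 with GC content (42.7% to 60.8%), and r = -0.161 with log2 length. Over all 12871 tested genes with a length the values were -0.079 with GC content and 0.203 with length. These points come from the same 5 libraries and are no independent replicates. In SPG the r with GC content was 0.016 and that with length 0.282, and all 27 members shorter than 600 bases were below 0 (median -0.44), as were 24 of 32 from 600 to under 1000 bases (median -0.28) and all 16 longer ones (median -0.35). Of other genes shorter than 600 bases 144 of 226 were below 0, with a median of -0.22. When trends with GC content and length over all genes were removed in each library, an alternative chosen after seeing the data, 22 members were called higher in LZ (13.6% of all genes) with a median of 0.82, and the SPG median was -0.17.

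**Figure D3:**
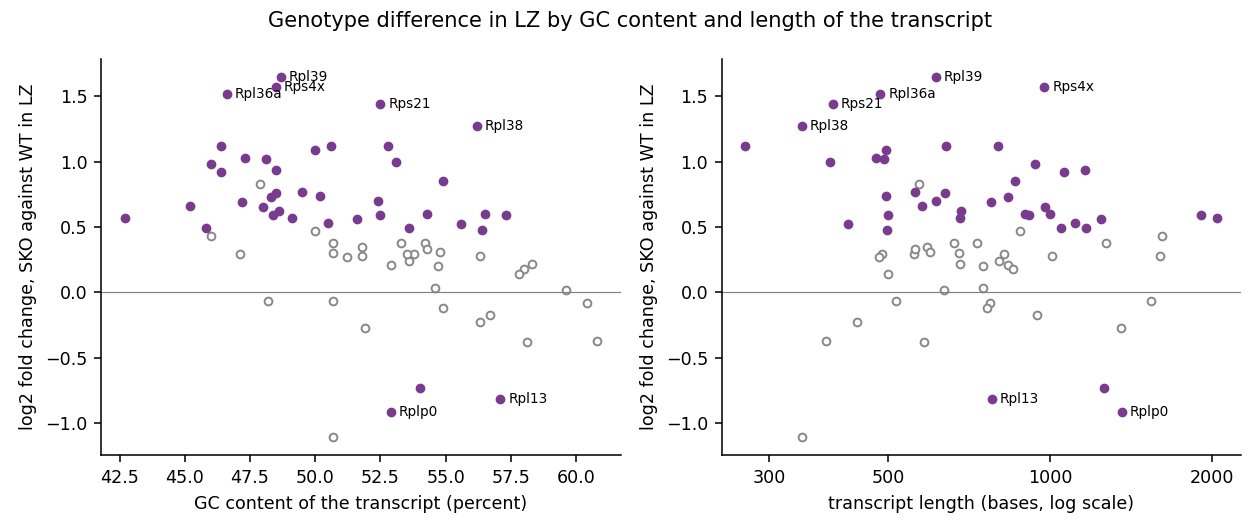
Log2 fold change of SKO against WT in LZ for 75 members by GC content (percent, left) and by length of the transcript (bases, log axis, right). Filled points had an adjusted p under 0.05. Points with lower GC content tend to lie higher (r = -0.465), and length shows a weaker relation (r = -0.161).

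In WT cells the members stood mostly lower, relative to other genes, at each later stage. From SPG to PreL in WT, 0 members were called lower (all genes: 1.21%) or higher (all genes: 2.54%). Without the fold limit 8 were lower (all genes: 3.02%) and 0 higher (all genes: 4.27%). The median log2FC was -0.22, with 61 of 76 members below 0 (all genes: 6272 of 12657). At an unadjusted p under 0.05 31 were lower (all genes: 1528 of 12657). The lowest value was that of Rps4x (-0.70, adjusted p = 0.0547), and the highest were those of Rpl30 (0.19, adjusted p = 0.751, on few reads) and Rps29 (0.15, adjusted p = 0.406).

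From PreL to LZ in WT, again 0 were called lower (all genes: 7.80%) or higher (all genes: 18.8%). Without the fold limit 20 were lower (all genes: 14.2%) and 2 higher (all genes: 20.5%), with a median of -0.32 over members and 0.13 over all genes. Rpl22 had 7325, 7559 and 7849 in PreL and 4028 and 4597 in LZ (-0.96 ± 0.18, adjusted p = 0.00474), with no overlap. The 2 higher members were Rpl13, with 15570, 12040 and 11150 before and 23390 and 25600 after (0.79 ± 0.20, adjusted p = 0.0157), and Rplp0 (0.62 ± 0.18, adjusted p = 0.0266). Leaving out WT LZ replicate 3, which left 1 library in that group, gave some members called lower, while fewer of all genes were. On the ERCC-calibrated values without rescaling the direction turned: 72 members were called higher, as were 79.9% of all genes, the members' median was 1.52 and that of all genes 1.86. Total values per library rose 3.19-fold between these stages and the members' sum 2.78-fold. Markers of other cells moved between these stages as well. Late spermatocyte genes were called higher for 11 of 12 and Sertoli genes for 8 of 9, and macrophage genes were called lower for 4 of 7. Their part in the members' values was not tested.

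In SKO cells, from SPG to PreL, 0 members were called lower (all genes: 0.955%) or higher (all genes: 1.63%), and without the fold limit the counts were also 0 and 0 (all genes: 2.65% lower and 2.97% higher). At an unadjusted p under 0.05 they were 13 lower and 5 higher (all genes: 1409 and 1590 of 12882), and the median was 0.03. Rps4x had the lowest value (-0.59, adjusted p = 0.192) and Rps27 the highest (0.61, adjusted p = 0.488). On the values without rescaling 43 were called higher, as were 43.9% of all genes, whose median was 1.01. From PreL to LZ, 0 were called lower (all genes: 6.93%) and 8 higher (all genes: 10.6%), and without the fold limit 1 was lower (all genes: 19.1%) and 38 higher (all genes: 17.8%). The 8 were Rps12, Rps21, Rpl38, Rps29, Rps28, Rps23, Rps15a and Rpl39. Rps12, whose values were 5542, 6197 and 5271 in SKO PreL and 19140, 14220 and 15670 in SKO LZ, had 1.48 ± 0.14 (adjusted p = 0.000104), and Rps21 had 1.38 ± 0.13 (adjusted p = 0.000113). Without rescaling, 55 were called higher, as were 35.3% of all genes.

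The difference between stages in the genotype effect was tested itself, in 1 fit of all 17 libraries with no fold limit. Between SPG and PreL, 0 members were called lower (all genes: 0.111%) or higher (all genes: 0.251%). At an unadjusted p under 0.05 there were 2 and 11 (all genes: 1137 and 917 of 13530). DESeq2 called 3 (all genes: 1.4% lower and 1.06% higher). On the values without rescaling 73 were called higher, as were 43.9% of all genes, whose median was 0.94. Between PreL and LZ, 44 members were called higher (all genes: 15.1%), 26 large and 18 small, and 3 lower (all genes: 23.1%), with a median of 0.65 over members and -0.31 over all genes. The largest were Rpl38 (1.97 ± 0.21, adjusted p = 6.01e-07), Rps21 (1.95 ± 0.20, adjusted p = 3.47e-07) and Rpl39 (1.84 ± 0.25, adjusted p = 1.55e-05). Among the 3 lower were Rpl13 (-1.04 ± 0.20, adjusted p = 0.000498) and Rplp0 (-0.97 ± 0.18, adjusted p = 0.000406). On the values without rescaling the members' median turned to -0.23, where that of all genes was -1.12, and 8 members were called higher and 19 lower (all genes: 5.54% and 48.6%).

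The balance between the subunits, taken as the ratio of the summed large to the summed small subunit values, needs no scaling between libraries. It was 1.22 to 1.29 in WT SPG and 1.23 to 1.27 in SKO SPG, which overlap. It was 1.25 to 1.27 in WT PreL and 1.2 to 1.21 in SKO PreL, and 1.33 and 1.39 in WT LZ and 1.14 to 1.16 in SKO LZ, with no overlap at either stage. The ratio was therefore highest in WT LZ and lowest in SKO LZ. It rests on summed reads, in which abundant members weigh most.

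Genes for ribosomal proteins that lie outside the naming rule gave further contrasts. Fau and Gnb2l1 (now Rack1), core proteins with other symbols, were called in no comparison. Rpl10l, the autosomal copy of Rpl10 that is needed for male fertility, had 769 to 1227 in WT PreL, 4318 and 7162 in WT LZ and 3012, 2514 and 2194 in SKO LZ. It rose in WT from PreL to LZ by a log2FC of 2.35 ± 0.28 (adjusted p = 0.00251) and in SKO by 1.22 ± 0.16 (adjusted p = 0.000504), and SKO was lower in LZ (-1.14 ± 0.25, adjusted p = 0.00753). The difference between the LZ and PreL genotype effects was -1.24 ± 0.31 (adjusted p = 0.00364). The X-linked Rpl10 was thus higher in SKO LZ where Rpl10l was lower. Without WT LZ replicate 3, when the spread came from the SKO libraries and the lone WT library was assumed to vary like them, the LZ call of Rpl10l was lost (-0.775, adjusted p = 0.0719), as it was with the GC content and length trends removed (-0.668, adjusted p = 0.0557).

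Rpl39l, the autosomal copy of Rpl39, had 3349, 4820 and 3239 in WT PreL, 6602 and 9211 in WT LZ and 5931, 5930 and 5446 in SKO LZ. Its genotype log2FC was -0.45 in SPG (adjusted p = 0.0514), -0.61 in PreL (adjusted p = 0.0319) and -0.45 in LZ (adjusted p = 0.0821), and in SKO it was called higher from PreL to LZ (1.2 ± 0.11, adjusted p = 8.61e-05). Rpl7l1, a relative of Rpl7 linked to assembly of the large subunit, had the largest difference of these genes. It had 7752 and 9659 in WT LZ and 107100, 65880 and 82820 in SKO LZ, after 18260 to 24910 in WT PreL and 20170 to 24880 in SKO PreL. The log2FC in LZ was 3.26 ± 0.27 (adjusted p = 8.56e-05), from -1.49 in WT (adjusted p = 0.00255) and 1.87 in SKO (adjusted p = 0.000265) between PreL and LZ. Rpl22l1 was called higher from PreL to LZ in SKO (1.54 ± 0.14, adjusted p = 0.000103), and in WT it had 0.88 (adjusted p = 0.0366). Its genotype log2FC in LZ was 0.83 (adjusted p = 0.0179). The difference between its LZ and PreL genotype effects did not pass (0.55, adjusted p = 0.128). Rps27l had 0.71 in LZ (adjusted p = 0.0337), Rps4y2, now annotated as a transcribed pseudogene named Rps4l, had -0.44 (adjusted p = 0.0371), Rpl36al had 0.30 (adjusted p = 0.205), and Rpl3l, with a mean of 40.5 reads, had 0.38 (adjusted p = 0.528).

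Of 25 tested translation factors and other genes with TOP mRNAs, 0 were called lower in SKO SPG and PreL and 1 in LZ, and 1, 2 and 1 were called higher. Beside the counts of this and the following lists, 2.06%, 5.83% and 25.8% of all genes were called lower in SPG, PreL and LZ. The shares called higher were 3.95%, 5.32% and 13.4%. Vim, a cytoskeletal gene of somatic cells on this list, had 1.42 in SPG (adjusted p = 0.00543) and 2.44 in PreL (adjusted p = 0.00933). In LZ the poly(A)-binding protein gene Pabpc1 had -1.11 (adjusted p = 0.00789) and Pabpc4 1.25 (adjusted p = 0.00743), and the median of the list was 0.05. Of 48 ribosome biogenesis genes, 1 was called lower in each stage and 6 higher in LZ, with a median of 0.23 there. Nip7, needed for processing of ribosomal RNA, had 3.5 ± 0.35 in LZ (adjusted p = 0.000186) and Nol9, a polynucleotide kinase of the same pathway, had 2.17 ± 0.26 (adjusted p = 0.000399) after -1.34 in PreL (adjusted p = 0.018). In SPG the 1 lower was Nop10, a small nucleolar RNP protein (-1.01, adjusted p = 0.00188), and in LZ it was Wdr12 (-1.14, adjusted p = 0.0047). Of the regulators, Larp1, which binds TOP mRNAs, had -1.33 in LZ (adjusted p = 0.00982), Mycn 2.09 (adjusted p = 0.000443), Mtor -0.94 (adjusted p = 0.00557), and Myc 2.39 in SPG (adjusted p = 0.0109). The 75 mitochondrial ribosomal protein genes had medians of -0.12, -0.10 and -0.31 in SPG, PreL and LZ (all genes: 0.00, 0.04 and -0.13). In LZ 9 were called lower and 6 higher. Their median in LZ had the opposite sign to that of the cytosolic members and the same sign as that of all genes.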

How the data were processed

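Smart-seq2 libraries of sorted germ cells were measured in 17 samples. Gene counts of the authors rest on uniquely mapped reads (mm10; the submitters' processing notes name TopHat2 2.1.1, Cufflinks 2.2.1 and HTSeq 0.11.2) and were scaled by 1 factor per library, set from spike-in recovery and input cell number. The deposited values are therefore a calibrated signal, not counts. Dividing by the value of 1 read gave whole reads for 100% of values (within 0.01), 5812380 to 13820953 per library, and intervals from them would cover counting error only.

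Values were rescaled by median-of-ratios size factors, which removes differences in total RNA. Genes averaging 10 or more recovered reads over the libraries compared were tested as log2(value + 10) with limma 3.58.1 (trend, R 4.3.3), adjusted over all genes by Benjamini-Hochberg. The fit was tested on simulated data. As alternatives, edgeR 4.0.16 and DESeq2 1.42.0 on the recovered reads called 226 and 328 genes lower and 405 and 604 higher in SPG, 767 and 889 lower and 602 and 904 higher in PreL, and 3430 and 3419 lower and 1832 and 1852 higher in LZ. Lengths, GC content and copies came from GENCODE M21 transcripts, starts from RefSeq. No genome sequence was used, so copies outside annotated transcripts were not searched.

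The genes named are the 4 members at each end of every genotype comparison, the 2 at each end of the others, X-linked, stalk and other well-known members, the highest and lowest in level, the 3 strongest stage differences in each direction, paralogs, and up to 2 genes at each end of other lists. The members and lists were chosen with earlier results of these data known. Results of a few genes that meet this rule are not reported here, and those genes remain in all counts, medians and sums.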

Additional observations from a re-analysis of the deposited data

Results flagged for a closer look

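The genotype effect differed between LZ and PreL by the test of the difference itself (limma, 17 libraries). Of the members, 3 were lower and 44 higher in this test (all genes: 23.1% and 15.1%). Without rescaling 19 members were lower and 8 higher (all genes: 48.6% and 5.54%), with a median of -0.226 (all genes: -1.12). Among genes named in the text the difference was 1.97 for Rpl38 (adjusted p = 6.01e-07), 1.95 for Rps21 (adjusted p = 3.47e-07) and 1.84 for Rpl39 (adjusted p = 1.55e-05). It was -1.04 for Rpl13 (adjusted p = 0.000498) and -0.97 for Rplp0 (adjusted p = 0.000406). Of the paralogs, Rpl7l1 had 3.25 (adjusted p = 3.63e-08), Rps27l 1.08 (adjusted p = 0.000736), Rpl10l -1.24 (adjusted p = 0.00364) and Rps4y2 -0.95 (adjusted p = 0.00394).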

How the results depend on the processing

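The choice that moved most results was the scaling. On the ERCC-calibrated values without rescaling, 6 members were called lower in SPG, 2 higher in PreL, and 1 lower and 5 higher in LZ. The shares of all genes were 4.5%, 26.3%, 28% and 11.3%, in the same order. From PreL to LZ 72 were called higher in WT (all genes: 79.9%) and 55 in SKO (35.3%), and from SPG to PreL 43 in SKO (43.9%). Between genotype effects 73 were called for PreL against SPG, all higher (all genes: 43.9%), and 27 for LZ against PreL, 8 higher and 19 lower (all genes: 5.54% and 48.6%). The median turned to 0.615 in PreL, to 1.52 from PreL to LZ in WT and to -0.226 for LZ against PreL. From PreL to LZ in WT the sign also turned for Gnb2l1 (1.51), Nat10 (1.53), Rpl10 (1.15), Rpl11 (1.67), Rpl36al (1.57), Rpl5 (1.23), Rpl7l1 (0.346), Rplp1 (1.31), Rplp2 (1.17), Rps27a (1.76), Rps6 (1.58) and Rpsa (1.75). It turned for Gnb2l1 (0.95), Rpl39l (0.838) and Rpl7l1 (0.937) in PreL against SPG, and for Fau (-0.611), Gnb2l1 (-0.63) and Rpl39l (-0.694) in LZ against PreL. Without rescaling the median of all genes was -0.25, 0.73 and -0.25 in SPG, PreL and LZ, 0.08 and 1.86 between stages in WT, 1.01 and 0.81 in SKO, and 0.94 and -1.12 for the differences of effects.

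Without the fold limit 28 members were lower in SPG (all genes: 4.84%), 14 in PreL (10%) and 3 in LZ (31.1%). In LZ 38 were higher (all genes: 19.8%), and from SPG to PreL in WT 8 were lower (all genes: 3.02%). From PreL to LZ in WT 20 were lower and 2 higher (all genes: 14.2% and 20.5%). From PreL to LZ in SKO 1 was lower and 38 higher (all genes: 19.1% and 17.8%). With trends in GC content and length removed, chosen after seeing the data, 22 were higher in LZ (all genes: 13.6%). From PreL to LZ in WT 3 were then lower (all genes: 7.27%). DESeq2 called 3 for PreL against SPG (all genes: 1.4% lower and 1.06% higher). Leaving out 1 library gave 0 to 2 lower in SPG. It was 1 without WT SPG replicate 1 (all genes: 1.27%) and 2 without SKO SPG replicate 3 (all genes: 1.66%). In LZ the number of members called higher moved both ways and was lowest without WT LZ replicate 2. From PreL to LZ in WT 2 were lower without WT PreL replicate 1 (all genes: 7.02%). Some were also called lower there without either WT LZ library. Nat10 lost its call in LZ without WT LZ replicate 3 (-1.27, adjusted p = 0.0535) and in PreL without rescaling (-0.588, adjusted p = 0.114). Where 1 WT LZ library was left out, the remaining one was assumed to vary like the other group. Where calls changed, the cause was not tested.

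With the replicate block 11 members were called higher in LZ (all genes: 13.4%), and the block moved no other count of member calls by over 1.5 times. Same-numbered libraries gave mixed correlations of their deviations (31 pairs, r from -0.285 to 0.439). The genotypes in LZ gave 0.112 and 0.113, but deviations of 2 WT libraries mirror each other, so these are not separate values. Each genotype comparison had only 2 such pairs, too few to decide whether the numbers pair samples. The numbers were therefore not used as pairs in the main fit. For PreL to LZ in WT only 1 number was shared and no block could be fitted.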
